A study of Mus musculus with 6 samples.

Results

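The genes described here are the 3 Pim kinases, 4 members of the SOCS family and the signalling genes above them, measured in hematopoietic stem cells (HSCs) of WT mice and of mice carrying an inducible deletion of *Med23*, a subunit of the Mediator complex that links transcription factors to RNA polymerase II. They are *Pim1*, *Pim2*, *Pim3*, *Socs1*, *Socs2*, *Socs3*, *Cish*, *Stat5a*, *Stat5b* and *Jak2*, 10 of the 34745 genes in the deposited tables, each matched to a single row by its symbol. They were chosen by pathway with values of this genotype contrast already known, so their differences between genotypes are given as a description and not as a test.

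HSCs were sorted from C57BL/6 bone marrow as LSK (lineage-negative, Sca1-positive, cKit-positive) cells that were CD150+, CD34- and CD48-. The WT group, WT(Med23floxp/flowp), carried the floxed allele without Cre, and the KO group, KO(Mx1-cre;Med23floxp/flowp), carried it together with Mx1-cre, a Cre transgene whose promoter responds to interferon and was induced with poly(I:C). The paper reports blood counts of both WT and KO mice after poly(I:C) administration. Its RNA-seq methods do not restate the treatment of either group. The Mx1 promoter is also active outside blood cells, and the labels give neither the age of the mice nor whether a library pooled several animals. Each group held 3 libraries, numbered 1 to 3, and nothing in the labels ties equal numbers together or says that libraries came from separate mice, so the spread between them may be partly technical.

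JAK2 is a tyrosine kinase bound to the receptors for thrombopoietin, erythropoietin and several other cytokines. When a receptor is engaged it phosphorylates STAT5A and STAT5B, which enter the nucleus and bind DNA at palindromic elements of the form TTCNNNGAA. Among the genes they switch on are *Cish* and *Socs2*, as well as *Socs1*, *Socs3*, *Pim1* and *Pim2*. SOCS proteins and CIS, the product of *Cish*, act back on the receptor complex and dampen it. Pim kinases are serine/threonine kinases with no separate activation step, so that their activity largely follows how much protein is made. They act on proteins of survival, cell cycle and translation. In HSCs thrombopoietin signalling through this route is known for maintaining quiescence and self-renewal.

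To show what a STAT5 element looks like in these genes, the sequences below were taken from the RefSeq promoter windows of GRCm38.p6, 300 bases each with 250 before the start site. Of the 10 genes 9 had a window. A search for TTCNNNGAA, which reads the same on both strands, found it in windows of *Cish* and *Socs3* and of none of the other 7 genes. Of the 27025 mouse genes with a window 9.55% had a match. By window it was 2 of the 12 windows of these genes, against 8.30% of the 32851 mouse windows. The same search with a spacer longer by 1 base, TTCNNNNGAA, matched 6.95% of mouse windows and none from these genes. Capitals mark the matches. *Cish* is shown as the 20 bases from the RefSeq start of its window (chr9:107296659-107296678, plus strand), which hold 2 matches. They lie inside the first exon of the transcript Cish-201, which GENCODE starts farther upstream. *Socs3* is shown from base -250 to base -86 (chr11:117969452-117969616, minus strand), with 1 match at -154 to -146, inside an intron of the transcript Socs3-202. *Pim2*, the gene with the largest difference between genotypes of the 10, is shown from base -250 to base -45 (chrX:7878056-7878261, plus strand), without a match.
Cish: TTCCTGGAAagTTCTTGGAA
Socs3: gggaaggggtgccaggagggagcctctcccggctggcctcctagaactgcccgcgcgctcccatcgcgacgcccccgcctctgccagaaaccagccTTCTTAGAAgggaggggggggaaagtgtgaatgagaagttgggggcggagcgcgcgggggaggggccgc
Pim2: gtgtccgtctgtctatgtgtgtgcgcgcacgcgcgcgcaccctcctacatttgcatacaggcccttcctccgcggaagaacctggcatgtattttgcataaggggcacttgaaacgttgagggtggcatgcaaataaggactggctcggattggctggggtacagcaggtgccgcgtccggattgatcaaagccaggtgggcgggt
A match is a description of letters and not of binding, and its absence from a window says nothing of elements elsewhere.

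The libraries held 3537269 to 8131344 counts, at which 3 counts amount to 0.369 to 0.927 CPM (counts as a share of the library, scaled to a common size). All 12 HSC markers had at least 10 counts in every library. Of these, *Kit*, *Ly6a* (Sca1), *Hlf* and *Esam* were lower in every KO library and *Mecom* was higher, with edgeR adjusted p from 0.41 to 0.91. The library labelled WT replicate 3 was the shallowest and stood apart. The genes *Gm26917* and *Gm42418* took 18.1% of its counts, against 12.0% in KO replicate 3 and 6.11 to 10.5% in the others. Mitochondrial genes took 0.734% in WT replicate 3, against 0.582% in KO replicate 3 and 0.199 to 0.378% in the others. *Med23* was at 24.1 CPM in WT replicate 3, below every KO library (29.9 to 36.8 CPM). In the other WT libraries *Med23* was at 47.6 and 70.8 CPM. Its log2 fold change was -0.54 (standard error (SE) 0.41, adjusted p = 0.99 by edgeR's quasi-likelihood test). A count over the whole gene does not single out the floxed exons, so it does not measure the deletion. The paper reports efficient ablation of *Med23* after poly(I:C). Because WT replicate 3 stood apart, the values of the 10 genes whose size or direction turned on it are also given without that library. Sums of markers of other cells also differed between genotypes. The 20 skeletal muscle markers summed to 203 to 509 CPM in WT and 12.5 to 43.0 CPM in KO, with 16 of them lower in every KO library. The 14 granulocyte markers summed to 92.7 to 144 CPM in WT and 311 to 582 CPM in KO, with *Ltf*, *Mmp8* and *Ly6g* at 0 everywhere. Only *Prtn3* was higher in every KO library, at 83.0 to 141 CPM in WT and 304 to 355 CPM in KO, and *Mpo* reached 175 CPM in KO replicate 3 alone. The 6 megakaryocyte markers summed to 142 to 220 CPM in WT and 262 to 342 CPM in KO, with 2 of them (*Ppbp* and *Gp9*) higher in every KO library, *Itga2b*, the most abundant, overlapping and *Gp6* at 0. Erythroid, B cell and T cell markers overlapped between groups, and *Cd3e*, *Cd3d*, *Cd3g*, *Cd8a*, *Ms4a1*, *Pax5* and *Igll1* were at 0. Of the genes for the surface markers that the gate excludes, *Cd34* was at 296 to 360 CPM in WT and 384 to 520 CPM in KO, and *Cd48* at 0 to 3.44 CPM in WT and 0 in KO. *Flt3*, a marker of multipotent progenitors, overlapped between groups. The part of these cells in the values that follow was not tested. In bulk samples, fewer cells of a type and less RNA per cell cannot be told apart.

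*Pim2* was the one gene of the 10 whose KO libraries all lay above the WT libraries, and *Stat5a* the one whose KO libraries all lay below them. The other 8 genes overlapped between genotypes. All 10 passed the filter on low counts. At an adjusted p under 0.05 edgeR called 0 of them, against 0.0719% of the 12513 genes tested (9 genes). At an unadjusted p under 0.05 it named 1, *Pim2*, against 5.71% of all genes, and DESeq2 called the same gene at an adjusted p under 0.05, against 0.971% of the 15342 genes it tested. Genes higher in every KO library made up 6.25% of those tested and genes lower in every KO library 6.15%. The fold change estimate was positive for 6 of the 10 genes with a median of 0.17 on the log2 scale, beside 49.5% and -0.0054 over all genes tested. Because this contrast was known when the genes were chosen, nothing is read from these counts.

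**Figure D1:**
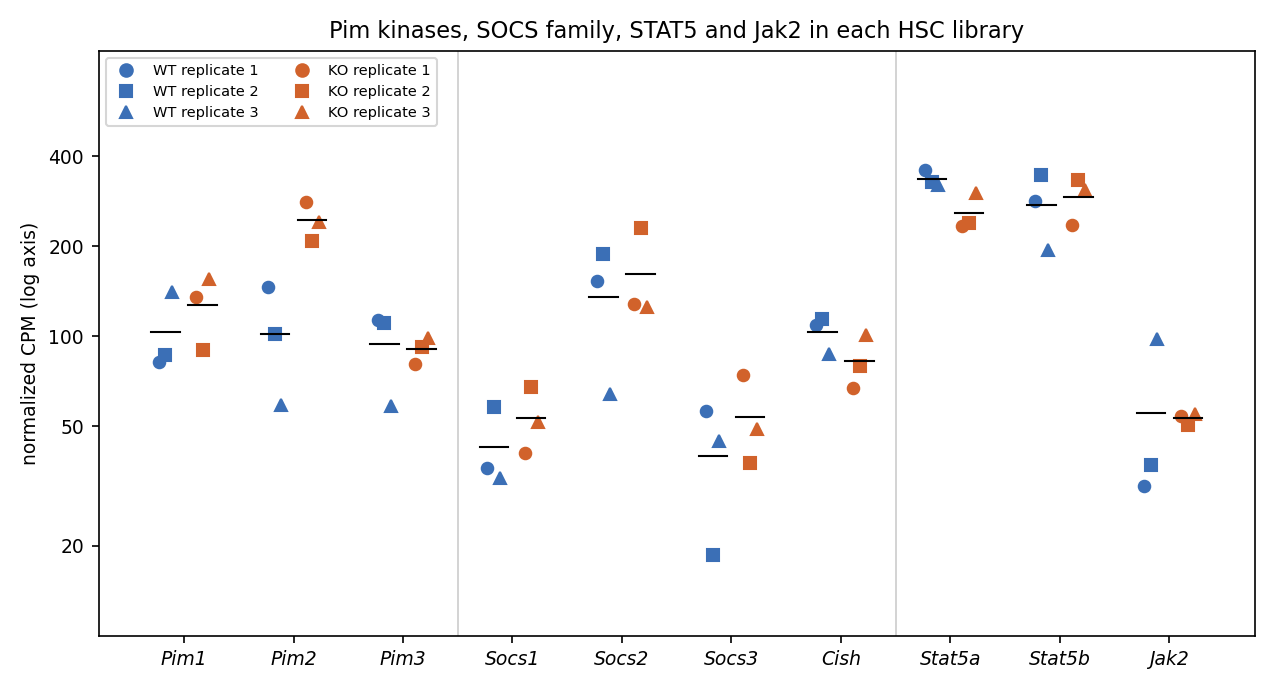
Normalized CPM (log axis) of the 10 genes in each of 3 WT and 3 KO libraries, with a marker shape for each replicate number and a black line at each group mean. *Pim2* lies at 59.0 to 146 CPM in WT and 209 to 282 CPM in KO, *Stat5a* at 319 to 361 CPM in WT and 234 to 302 CPM in KO, and for the other 8 genes the groups overlap.

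Among the Pim kinases, *Pim2* (ENSMUSG00000031155, GRCm38 chrX:7878262-7883432, plus strand) promotes survival and cap-dependent translation in blood cells. Its level was 146, 102 and 59.0 CPM in the WT libraries, given here and throughout in the order of replicates 1 to 3, and 282, 209 and 241 CPM in the KO libraries. Every KO library was above every WT library, and the WT libraries spread more widely than the KO libraries, with a coefficient of variation (CV) of 42.4% against 15.0%. The means were 102 ± 43.4 CPM in WT and 244 ± 36.5 CPM in KO (SD, n = 3 per group). This amounted to 2.38-fold, or 1.25 (SE 0.31) as a log2 fold change, and 7.13% of the genes tested had a larger difference in either direction. Without WT replicate 3, the lowest library, the log2 fold change was 0.98, and without WT replicate 1, the highest of its group, 1.60. Its direction was the same under all 17 alternatives of scaling, filter, test and samples.

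*Pim2* is X-linked, and both groups held libraries with and without Y-linked counts. The 4 Y-linked genes examined had 1 count in WT replicate 3 and 0 in KO replicate 3, and 1036 to 1855 counts in the other 4 libraries. In the libraries without Y-linked counts *Pim2* was at 59.0 CPM in WT and 241 CPM in KO. In those with them it was at 146 and 102 CPM in WT and 282 and 209 CPM in KO, with a log2 fold change of 1.0. The difference had the same direction in both sets, but the set without Y-linked counts held only 1 library per group. The part of sex in it was not tested.

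*Pim1* (chr17:29490753-29496112, plus strand), the family member known best as a STAT5 target and as a partner of MYC in lymphoma, was at 82.0, 86.4 and 141 CPM in WT and at 136, 89.9 and 156 CPM in KO. WT replicate 3 was as high as the KO libraries, and KO replicate 2 was nearly as low as the other WT libraries. Its log2 fold change was 0.30 (SE 0.30), and 0.59 without WT replicate 3. *Pim1* shares 488 exonic bases with *Gm26885*, an antisense gene, and the use of strand in counting is not given in the sources used here. *Gm26885* had 45, 62 and 13 counts in WT and 90, 42 and 48 in KO, beside 400 to 769 for *Pim1*.

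*Pim3* (chr15:88862186-88865726, plus strand), the third kinase of the family, was at 113, 111 and 58.4 CPM in WT and at 80.8, 92.5 and 99.0 CPM in KO. Here WT replicate 3 lay below every KO library while the other WT libraries lay above them all. The log2 fold change was -0.058 (SE 0.30), and -0.31 without WT replicate 3. It changed sign in 6 of the 17 alternatives.

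As a family, the 3 kinases summed to 341, 299 and 258 CPM in WT and to 498, 391 and 496 CPM in KO. Levels of different genes were compared as FPKM, which divides counts by gene length and library total. On that scale *Pim2* made up 28.5, 21.6 and 14.0% of the summed Pim level in the WT libraries and 41.5, 38.1 and 34.0% in KO. *Pim3* made up 43.0, 45.8 and 26.8% in WT and 23.1, 32.7 and 27.0% in KO. *Pim1* held 28.5 to 59.3% in WT, the highest value being that of WT replicate 3, and 29.2 to 39.0% in KO. The share of *Pim2* was thus higher in every KO library, whereas the shares of the other kinases overlapped between genotypes. Shares of a family, here and below, rest on the lengths behind the FPKM values. For *Pim2* that length is 4692 bases, where the GENCODE exons cover 2795. Other lengths would give other shares and could change which of them overlap.

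**Figure D2:**
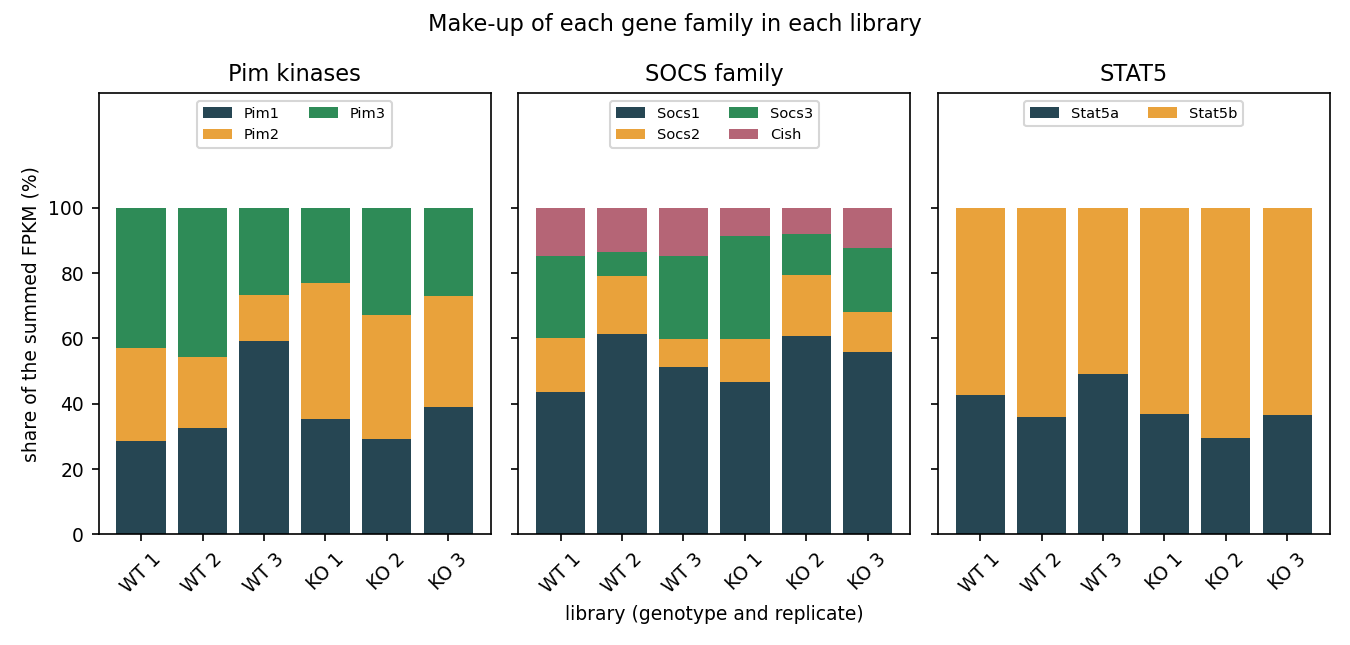
Share of the summed FPKM of each family (percent) taken by each gene, as stacked bars for the 3 WT and 3 KO libraries. *Pim2* takes 14.0 to 28.5% of the Pim level in WT and 34.0 to 41.5% in KO, and *Cish* takes 13.6 to 14.9% of the SOCS level in WT and 8.06 to 12.3% in KO.

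In the SOCS family, *Cish* (chr9:107296026-107302784, plus strand) encodes CIS, which binds phosphorylated receptor chains and competes with STAT5 for them. It was at 109, 114 and 87.2 CPM in WT and at 67.3, 79.9 and 101 CPM in KO. The groups overlapped only through WT replicate 3 and KO replicate 3. Means were 104 ± 14.3 CPM in WT and 82.7 ± 17.0 CPM in KO (SD, n = 3), and the log2 fold change was -0.32 (SE 0.26). It was -0.43 without WT replicate 3 and -0.59 with replicates 1 and 2 alone. Its direction was the same in all 17 alternatives. As a share of the summed SOCS FPKM, *Cish* was at 14.8, 13.6 and 14.9% in WT and at 8.65, 8.06 and 12.3% in KO, lower in every KO library. *Cish* overlaps 2 genes of the opposite strand, *Gm17040* and *Gm17041*, which had 21 and 0 counts over all libraries.

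*Socs1* (chr16:10782240-10785536, minus strand), an inhibitor of JAK kinases and of interferon signalling, was at 36.3, 57.9 and 33.7 CPM in WT and at 40.9, 67.9 and 51.6 CPM in KO. Replicate 2 was highest in both groups, and the groups overlapped. Its log2 fold change was 0.32 (SE 0.35), from 0.12 to 0.61 as libraries were left out in turn. Measured as FPKM it was the largest of the 4 in every library, with 43.7 to 61.3% of the family. This order rests on the length of 1220 bases behind its FPKM. With the exon length of the GENCODE annotation its mean was below that of *Cish* in WT (14.7 against 16.1 CPM per kilobase) and of *Socs3* in KO (18.4 against 18.6), with overlap.

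*Socs2* (chr10:95385362-95417180, minus strand), a STAT5 target that restrains growth hormone signalling and has been linked to the response of HSCs to stress, was at 153, 188 and 64.3 CPM in WT and at 128, 231 and 125 CPM in KO. Within WT the highest library was 2.93 times the lowest. The log2 fold change of 0.25 (SE 0.39) became -0.079 without WT replicate 3 and -0.096 without KO replicate 2. Of the 50-base words in its transcripts, 4.19% also occur in *Gm9847*, a processed pseudogene (chr12:14494561-14495159) that had 85, 212 and 26 counts in WT and 81, 185 and 82 in KO, so reads may be split between both.

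*Socs3* (chr11:117966079-117970047, minus strand), the main brake on gp130 and G-CSF receptor signalling, was at 56.2, 18.6 and 44.8 CPM in WT and at 74.2, 37.9 and 49.0 CPM in KO. WT replicate 2 was lower than any other library and rested on 151 counts. The log2 fold change was 0.43 (SE 0.44), and 0.087 without that library. Its direction was the same in all 17 alternatives although the groups overlapped.

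Upstream, *Stat5a* (chr11:100859351-100885169, plus strand) was at 361, 329 and 319 CPM in WT and at 234, 239 and 302 CPM in KO. The lowest WT library was 17.5 CPM above the highest KO library, KO replicate 3. Means were 336 ± 21.8 CPM in WT and 258 ± 37.6 CPM in KO (SD, n = 3), or 0.769 of the WT level, with a log2 fold change of -0.38 (SE 0.19). It was between -0.50 and -0.31 as libraries were left out in turn, and of the genes tested 41.1% had a larger difference in either direction. *Stat5a* had the smallest spread of the 10 genes among WT libraries, with a CV of 6.49%.

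*Stat5b* (chr11:100780731-100850724, minus strand), its neighbour on the chromosome and close homolog, was at 284, 346 and 194 CPM in WT and at 235, 333 and 308 CPM in KO. WT replicate 3 was again the lowest. The log2 fold change was 0.09 (SE 0.25), and -0.11 without that library. Together both genes summed to 645, 674 and 513 CPM in WT and to 470, 573 and 610 CPM in KO, with overlap. *Stat5a* made up 42.7, 35.8 and 49.2% of their summed FPKM in WT and 36.9, 29.7 and 36.5% in KO, so its share overlapped through WT replicate 2. The annotated transcripts of both genes share 608 of their 50-base words, 8.21% of those of *Stat5a* and 11.0% of those of *Stat5b*, and reads from these stretches cannot be assigned by sequence alone. *Stat5a* also shares 72 exonic bases with *Stat3* on the opposite strand, which was at 533 to 832 CPM.

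*Jak2* (chr19:29251828-29313080, plus strand), the kinase through which the thrombopoietin receptor signals, was at 31.6, 37.2 and 97.7 CPM in WT and at 54.3, 50.4 and 55.2 CPM in KO. The KO libraries lay close together, with a CV of 4.80%, whereas WT replicate 3 was far above and the other WT libraries below all of them (CV 66.0%). With all libraries the log2 fold change was -0.05 (SE 0.43), and without WT replicate 3 it was 0.63. No 50-base word of *Jak2* occurs in another annotated gene.

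**Figure D3:**
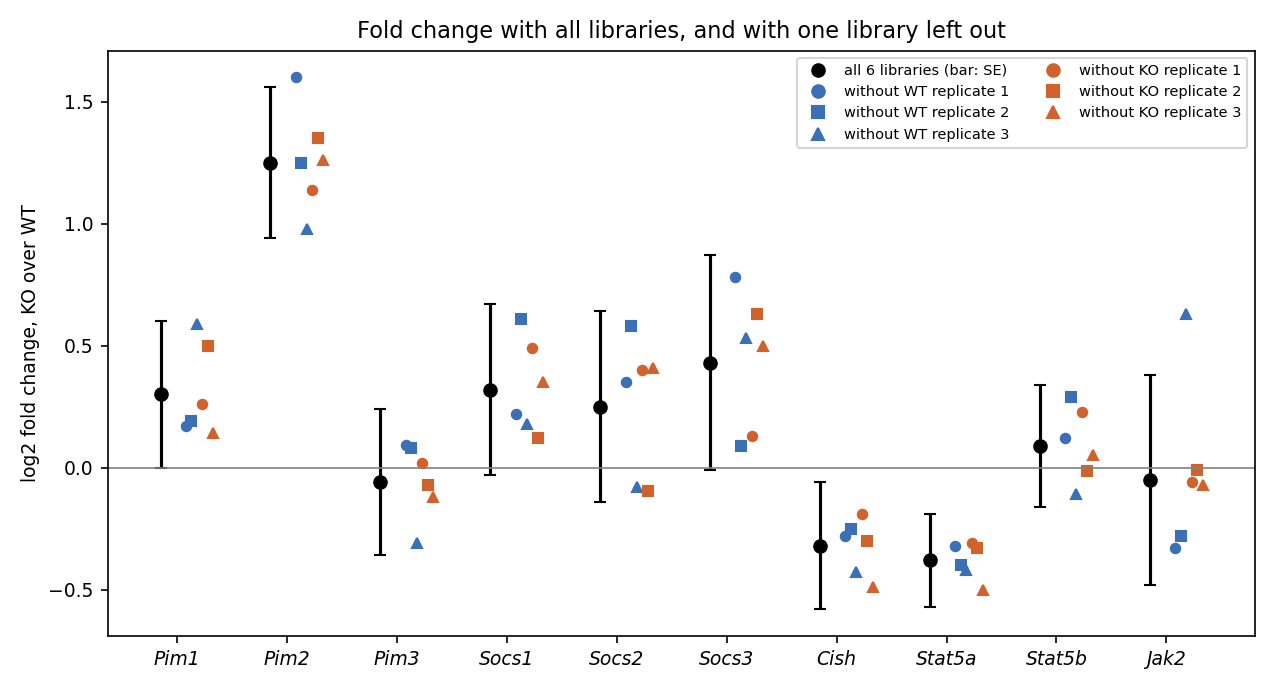
Log2 fold change (KO over WT) of each gene with all 6 libraries (black, bars are SE) and with each library left out in turn (blue, a WT library left out; orange, a KO library left out). *Pim2* lies between 0.98 and 1.60 and *Stat5a* between -0.50 and -0.31 in these fits, while *Jak2* moves to 0.63 without WT replicate 3.

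Leaving out WT replicate 3 changed the sign of the fold change for *Jak2*, *Socs2* and *Stat5b* and for none of the other 7 genes. Without it, *Pim1*, *Pim2* and *Jak2* were higher in every KO library than in both remaining WT libraries, and *Pim3*, *Cish* and *Stat5a* were lower. These are 3 and 3 of the 10 genes, beside 11.5% and 12.2% of all genes tested. Both remaining WT libraries had Y-linked counts, 1036 and 1855, whereas KO replicate 3 had 0. The part of this difference in fits without WT replicate 3 was not tested. Without WT replicate 3 edgeR called 0 of the 10 at an adjusted p under 0.05, beside 7 of the 13116 genes tested in that fit. At an unadjusted p under 0.05 it named 1, *Pim2*, beside 908 of the 13116 genes. DESeq2 was not run on this subset. With replicates 1 and 2 of each group alone the log2 fold changes were 1.0 for *Pim2*, 0.62 for *Jak2*, 0.43 for *Pim1*, -0.36 for *Pim3*, -0.53 for *Stat5a* and -0.59 for *Cish*.

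Ranked by deposited FPKM, the 10 genes spanned less than an order of magnitude. In WT the order of the means was *Stat5b* (46.3 ± 14.7 FPKM, SD, n = 3), *Pim3* (38.7 ± 14.4), *Pim1* (37.9 ± 9.55), *Socs1* (34.4 ± 11.6), *Stat5a* (33.1 ± 3.93), *Pim2* (21.7 ± 10.2), *Socs3* (11.9 ± 5.97), *Jak2* (10.5 ± 6.27), *Socs2* (9.84 ± 4.94) and *Cish* (9.40 ± 1.78). No neighbours in this order were separated: the ranges of each pair overlapped. In KO *Pim2* came first (52.7 ± 8.45 FPKM), followed by *Stat5b* (50.5 ± 8.75), *Pim1* (48.5 ± 11.4), *Socs1* (44.5 ± 12.0) and *Pim3* (37.9 ± 2.85), each overlapping with its neighbours in this group of 5. *Stat5a* (26.1 ± 2.60) was below *Pim3* and above *Socs3* (16.6 ± 6.02) without overlap, and *Socs2* (12.0 ± 4.80), which overlapped with *Socs3*, and *Jak2* (10.7 ± 0.406), which overlapped with *Socs2*, preceded *Cish* (7.68 ± 1.27), the lowest without overlap with *Jak2*. *Pim2* therefore ranked 6 in WT and 1 in KO.

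These levels rest on the gene lengths behind the FPKM values. They are 13691 bases for *Socs2*, 4692 for *Pim2* and 1220 for *Socs1*, where the merged exons of the GENCODE M21 annotation cover 9531, 2795 and 2908 bases. With the GENCODE lengths *Socs1* moved from rank 4 to rank 7 in WT, at 14.7 ± 4.57 CPM per kilobase. *Pim2* ranked 4 in WT, at 36.6 ± 15.5 CPM per kilobase and overlapping with both neighbours. It was first in KO at 87.3 ± 13.1 CPM per kilobase, without overlap with *Stat5b* at 52.8 ± 9.18. This second order was added after the data were seen. Differences between genotypes within a gene do not depend on its length.

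Genes whose log2 CPM correlated best with that of a member over the 6 libraries were looked up for *Pim1*, *Socs2* and *Jak2*. They were taken from 10137 genes with a mean of at least 50 counts. For *Pim1* they were *Trim24* (Pearson r of log2 CPM 0.978), *Taf1d* (0.970) and *Fam103a1* (0.968), and 51 genes reached 0.9. For *Jak2* they were *Nfu1* (0.987), *Ilkap* (0.985) and *Vps37c* (0.975), with 79 genes at 0.9 or more. For *Socs2* they were *Ube2n* (0.994), *Zfp748* (0.992) and *Gm9847* (0.988), the last being the pseudogene that shares sequence with *Socs2*, and 166 genes reached 0.9. *Ube2n* lies on the same chromosome as *Socs2* (chr10:95515145-95545657, plus strand). It ran only from 70.5 to 95.55 CPM, against 64.3 to 231 CPM for *Socs2*, and Pearson r takes no account of the size of changes. With 6 points that share their libraries and depths, these values describe likeness in these samples only.

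The rest of the pathway was followed in 8 lists of 122 genes, of which 109 passed the filter. Only *Egr1* passed edgeR's test at an adjusted p under 0.05. For the counts that follow, 5.71% of all genes edgeR tested had an unadjusted p under 0.05. DESeq2 called 0.971% of the genes it tested. All 8 other JAK and STAT genes were tested: 0 were called at an adjusted p under 0.05, 0 at an unadjusted p under 0.05 and 0 by DESeq2, and their log2 fold changes ran from -0.28 to 0.43 with a median of 0.17. All 16 other brakes on the pathway were tested as well, with 0 calls by edgeR and DESeq2, 1 gene at an unadjusted p under 0.05 and a median of 0.17. The 4 ubiquitin ligase partners of the SOCS box, through which SOCS proteins mark their targets for degradation, were between -0.33 and 0.12 with 0 calls by either tool and 0 at an unadjusted p under 0.05.

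Of 30 cytokine receptor chains 22 were tested, 5 were at 0 in every library and 0 were called by edgeR or DESeq2. At an unadjusted p under 0.05 there were 4 of the 22, beside 5.71% of all genes tested. *Il2rg*, the common gamma chain, was at 435, 418 and 372 CPM in WT and at 449, 638 and 638 CPM in KO (log2 fold change 0.49, SE 0.20, edgeR adjusted p = 0.80). *Csf2rb2*, a beta chain of the IL-3 receptor, was at 48.0, 43.9 and 45.1 CPM in WT and at 73.8, 53.7 and 98.1 CPM in KO (0.72, SE 0.31, edgeR adjusted p = 0.84). These 2 genes were higher in every KO library. *Il6ra*, the IL-6 receptor, was lower in every KO library, at 43.5, 35.3 and 42.3 CPM in WT and 16.2, 10.6 and 23.5 CPM in KO (-1.27, SE 0.42, edgeR adjusted p = 0.62). *Epor*, the erythropoietin receptor, was at 14.8, 13.3 and 50.1 CPM in WT and at 5.27, 3.64 and 7.08 CPM in KO (-2.28, SE 0.66, edgeR adjusted p = 0.48). WT replicate 3 was the highest, and without it the estimate was -1.39.

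Of 11 other known STAT5 targets 10 were tested. edgeR and DESeq2 called 0 of them, and 2 passed an unadjusted p under 0.05, beside 5.71% of all genes tested. Of the 10 estimates 8 were positive with a median of 0.43, beside 49.5% and -0.0054 over all genes tested. *Mcl1*, a survival factor, was at 70.1, 70.2 and 88.7 CPM in WT and at 90.0, 98.6 and 124.7 CPM in KO (log2 fold change 0.45, SE 0.26, edgeR adjusted p = 0.95). *Osm*, the cytokine oncostatin M, was at 6.97, 0.614 and 0 CPM in WT and at 9.52, 24.8 and 25.3 CPM in KO (2.95, SE 1.14, edgeR adjusted p = 0.77), and the WT values rested on 34, 5 and 0 counts. The estimate for *Osm* was 5.60 without WT replicate 1 and 2.42 without WT replicate 3. *Bcl2*, a further survival factor, went the other way, at 73.6, 62.8 and 123.6 CPM in WT and 62.0, 55.3 and 40.7 CPM in KO (-0.71, SE 0.33, edgeR adjusted p = 0.91). *Myc*, a growth regulator whose protein is also a Pim substrate, was at 101.5, 110.5 and 218.8 CPM in WT and at 44.0, 73.9 and 77.9 CPM in KO (-1.13, SE 0.36, edgeR adjusted p = 0.56), and its estimate was -0.70 without WT replicate 3. *Bcl2* and *Myc* were the only tested genes of this list with a negative estimate. Genes were named by a rule that takes rises and falls alike, so the named genes do not show the balance of the list.

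All 14 genes for Pim substrates were tested, with 0 called by edgeR or DESeq2, 1 at an unadjusted p under 0.05 and a median of -0.057. Besides *Myc*, *Eif4ebp1*, which encodes the translation repressor 4E-BP1, was lower in every KO library, at 112, 101 and 134 CPM in WT and 76.6, 96.1 and 88.0 CPM in KO (log2 fold change -0.41, SE 0.24, edgeR adjusted p = 0.96).

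Deletion was induced through an interferon response, so interferon-stimulated genes were examined beside the SOCS genes, which also respond to interferon. Of 20 such genes 19 were tested, with 0 called by edgeR or DESeq2, 0 at an unadjusted p under 0.05 and a median of -0.015. *Ddx58*, the RNA sensor RIG-I, was at 102, 99.4 and 47.9 CPM in WT and at 173, 122 and 113 CPM in KO (log2 fold change 0.71, SE 0.32, edgeR adjusted p = 0.90). *Bst2* and *Irgm1* had estimates of -0.39 (SE 0.24) and -0.15 (SE 0.22), lower in every KO library.

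Immediate early genes, which like *Socs3* and *Pim1* respond within minutes to stimulation and to handling of cells, included the one call. *Egr1*, a zinc finger factor, fell from 86.9 ± 15.1 CPM in WT to 5.11 ± 1.98 CPM in KO (SD, n = 3; log2 fold change -4.08, SE 0.42, edgeR adjusted p = 0.0043). The other 16 of 17 tested genes were not called by edgeR or DESeq2. Beside 5.71% of all genes tested, 5 of the 17, *Egr1* included, had an unadjusted p under 0.05. Among them *Btg2* was at 7.18, 13.9 and 13.0 CPM in WT and at 20.7, 25.8 and 66.6 CPM in KO (1.73, SE 0.55, edgeR adjusted p = 0.58), and the estimate was 1.04 without KO replicate 3. *Klf6* was at 34.9, 38.1 and 64.3 CPM in WT and at 118, 80.8 and 110 CPM in KO (1.18, SE 0.32, edgeR adjusted p = 0.42). *Zfp36*, an RNA-binding repressor of cytokine transcripts, had an estimate of 0.89 (SE 0.28, edgeR adjusted p = 0.56) and was also higher in every KO library.

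**Figure D4:**
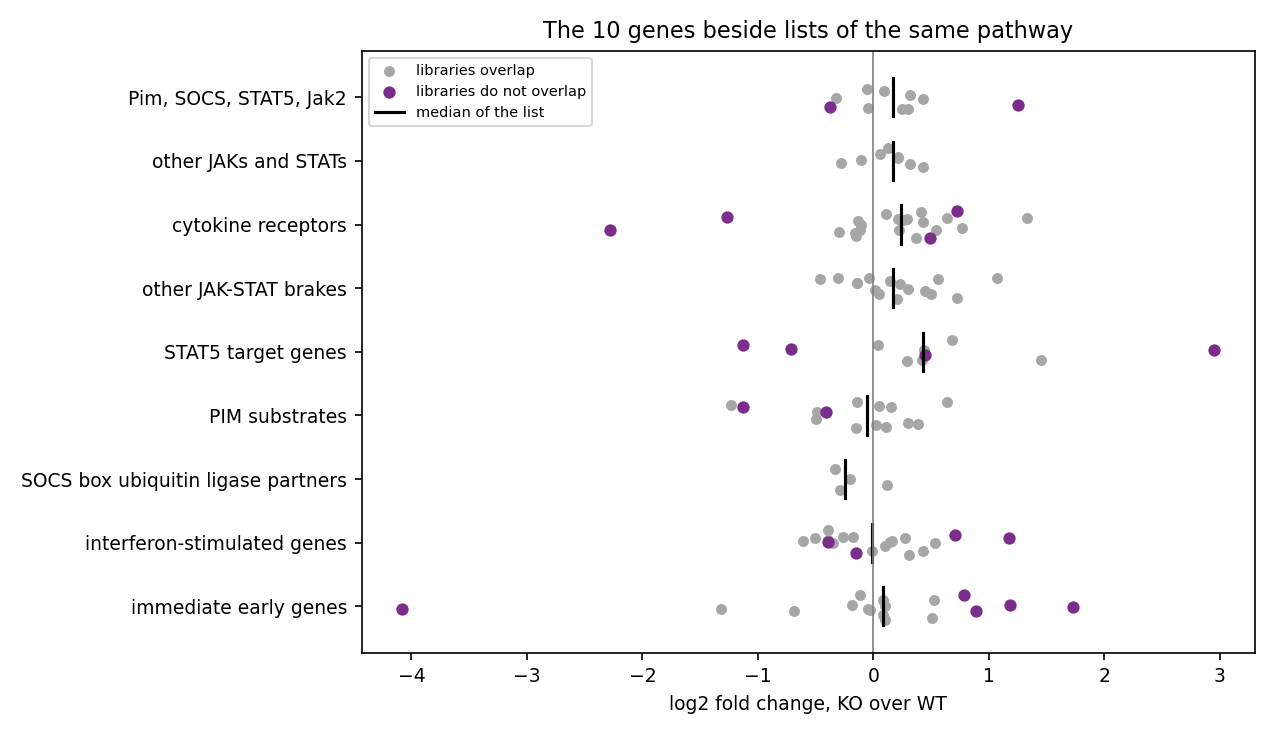
Log2 fold change (KO over WT) of each tested gene in the 10 genes and in 8 lists of the same pathway, with a black line at the median of each list and purple points where no WT library overlaps a KO library. *Pim2* at 1.25 lies farthest from 0 among the 10 genes, and *Egr1* at -4.08 is the one gene in the 8 lists past the adjusted threshold of edgeR.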

How the data were processed

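RNA-seq of 3 WT and 3 KO samples of sorted HSCs was analysed. The authors deposited 2 tables of 34745 genes, unnormalized read counts and FPKM. The submitters' processing notes name TopHat, HTSeq and the build mm10; annotation and use of strand are not given in the sources used here. The labels name SMART-Seq v4 amplification, the methods a TruSeq kit, and neither mentions molecular identifiers, so counts are taken as reads and not as molecules. The SD and SE given here include the spread between libraries. The deposited FPKM equalled count over length and column total within 0.00412% for 9559 genes. Replicates of a group differed beyond counting noise (chi-square per degree of freedom 24.4 to 50.0).

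Counts were compared in R 4.3.3 with edgeR 4.0.16 (filterByExpr, TMM, robust quasi-likelihood test, Benjamini-Hochberg adjustment at 0.05). The same steps were afterwards run on counts simulated from the means and dispersions of these data. CPM are TMM-normalized; log2 fold changes are KO over WT, and SE are from that fit. Alternatives were upper-quartile and RLE scaling, no filter, at least 10 counts in every sample, a replicate block, DESeq2 1.42.0, limma 3.58.1 with voom weights or on log2(FPKM + 1) and log2(FPKM + 0.1) with a minimum mean of 1 or none, each library left out, and replicates 1 and 2 alone. Coordinates and exons are from GENCODE M21, which held 34344 of the identifiers, and promoter windows from RefSeq.

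The genes and lists were chosen with earlier results of these data known. Named besides the 10 genes were list genes past the threshold, and up to 3 rises and 3 falls per list without overlap between groups and with a mean of at least 50 counts. Also named were *Med23* and the 3 genes most like *Pim1*, *Socs2* and *Jak2*. Other genes named for overlap or shared sequence, and single markers, were chosen after their values were seen. Markers are otherwise given as sums.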

Additional observations from a re-analysis of the deposited data

How the results depend on the processing

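Of the 10 genes, edgeR called 0, and the count was 1 (*Pim2*) with DESeq2 and 0 under every other alternative. At an unadjusted p under 0.05 the count was 1 (*Pim2*) or 2 (*Pim2* and *Stat5a*) in each of them. *Stat5a* entered with the replicate block, without KO replicate 3, with replicates 1 and 2 alone and with voom. In these fits 1005 of 12513, 740 of 12988, 827 of 12767 and 955 of 12513 genes passed that unadjusted threshold. In the main fit 715 of 12513 passed it. Over all genes the 9 calls became 149 with DESeq2 (59 higher), 15 with log2(FPKM + 1) and a minimum mean of 1, 1 without that minimum and 0 with voom and sample weights, where 955 genes had an unadjusted p under 0.05. Leaving out 1 library at a time gave 5 to 11 calls, with 5 without WT replicate 1. In the pathway lists the 1 call (*Egr1*) became 0 with voom (log2 fold change -3.98, adjusted p = 0.068) and 0 with log2(FPKM + 1) without a minimum (-2.86, adjusted p = 0.15). The causes were not tested. Of 170 log2 fold changes of the 10 genes under alternatives, 167 stayed within 1 SD of the value reported. This SD is the pooled spread of log2 CPM between libraries of a group and not an error of the fold change. It ran from 0.16 for *Stat5a* to 0.68 for *Socs2* and *Socs3*, so some changes of sign fell within it. The exceptions were *Cish* at -0.59 with replicates 1 and 2 alone and *Jak2* at 0.62 in the same fit and 0.63 without WT replicate 3. The sign changed in some alternatives for *Pim3* (6 of 17), *Jak2* (7), *Stat5b* (3) and *Socs2* (2). With the replicate block 5 genes were called, 0 of them higher and 0 of them among the 10. Between WT and KO libraries of equal number, departures from the group means correlated at 0.267, 0.0631 and 0.264. For libraries of unequal number the correlations ran from -0.271 to 0.0698. The labels do not tie equal numbers together, so the main fit took no pairs and the block is given as an alternative. Whether libraries of equal number shared a batch was not tested. In the shallowest library (3537269 counts), genes with low counts such as *Socs1* (109 counts) and *Socs3* (145 counts) were limited in precision there.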
